A study of Mus musculus with 12 samples.

Results

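The myostatin, activin and follistatin genes of skeletal muscle comprised 10 mouse genes, chosen by name with earlier results of these data known. They were the ligands *Mstn*, *Gdf11*, *Inhba*, *Inhbb* and *Gdf5*, the secreted antagonists *Fst* and *Fstl3*, and the receptors *Acvr1b*, *Acvr2a* and *Acvr2b*. All 10 were found among the 27179 genes of the count table, and all 10 were among the 15502 genes with enough counts to be tested. RNA-seq was performed on 12 tibialis anterior (TA) muscles from wild-type (WT) male C57BL/6N mice, which arrived at 6 to 8 weeks of age and were used within 2 weeks. In each of 6 mice, 1 TA was transfected with 10 μg of empty pcDNA3 plasmid (Control) and the contralateral TA with 10 μg of plasmid encoding full-length *FRAIL1*, a human long noncoding RNA. The cytomegalovirus promoter drove *FRAIL1* expression, plasmids were delivered by electroporation after hyaluronidase in both groups, and muscles were harvested 7 days later. The RNA was that of whole muscle, which holds transfected and untransfected fibers and every other cell type of the tissue. *FRAIL1* itself is not among the mouse genes counted, so the transfection was not checked here.

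Myostatin and the activins are secreted dimers of the TGF-β superfamily that bind a type II receptor (ACVR2A or ACVR2B), which then recruits and phosphorylates a type I receptor such as ACVR1B. The activated type I receptor phosphorylates SMAD2 and SMAD3, which enter the nucleus with SMAD4, and in skeletal muscle this branch restrains fiber size. Follistatin and follistatin-like 3 bind these ligands outside the cell and block them. GDF5 belongs to the BMP branch of the same family, which acts through SMAD1, SMAD5 and SMAD9, and is known for its induction in denervated muscle.

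Several members are related in sequence, so a read could in principle be assigned to the wrong gene, and *Mstn* and *Gdf11* are shown because *Mstn* had the most counts of the ligands. Aligned coding sequences of these genes were 65.4% identical, and the longest run of bases they shared was 12. That run is printed in capitals below within 72 bases of each coding sequence (GENCODE transcripts, GRCm38), at bases 433 to 504 of 1131 for *Mstn* and 496 to 567 of 1218 for *Gdf11*.
Mstn: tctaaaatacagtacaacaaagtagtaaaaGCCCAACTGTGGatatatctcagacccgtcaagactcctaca
Gdf11: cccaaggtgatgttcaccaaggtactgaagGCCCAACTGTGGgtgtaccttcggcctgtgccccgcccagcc
The other related pairs shared runs that were similarly short, 18 bases for *Inhba* and *Inhbb* (65.8% identical), 12 for *Fst* and *Fstl3* (60.5%), and 14 for *Acvr2a* and *Acvr2b* (66.6%). No member transcript matched another member at 98% identity or more over 100 bases. Overlap with a gene on the opposite strand was the remaining limit, because the sources used here do not state whether reads were counted by strand. It covered 40.3% of the exonic bases of *Gdf5* (with *Gm15557*), 47.3% of *Fstl3* (with *Prss57*), 7.84% of *Acvr2a* (with *Orc4*) and 2.51% of *Fst* (with *Gm47040*), and none of the other 6 genes.

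The start of *Mstn* is shown because *Mstn* is the ligand of the set with the most counts and because *Myog*, whose product binds the E-box motif CANNTG, was among the genes that passed the test in these muscles. The RefSeq promoter window, 250 bases before to 50 bases after the start of transcription at chr1:53061390-53061689 (GRCm38.p6, plus strand), held 4 E-boxes, which are in capitals.
Mstn promoter: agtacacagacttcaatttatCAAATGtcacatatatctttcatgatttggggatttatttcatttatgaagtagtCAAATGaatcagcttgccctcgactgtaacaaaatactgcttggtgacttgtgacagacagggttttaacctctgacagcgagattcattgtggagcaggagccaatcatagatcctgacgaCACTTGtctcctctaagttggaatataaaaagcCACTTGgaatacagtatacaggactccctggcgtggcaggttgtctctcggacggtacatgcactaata
CANNTG reads the same on both strands, and 72.1% of 27025 promoter windows of the same length held at least 1, with a median of 1. Windows were found for 8 of the 10 genes, and not for *Fst* and *Gdf5*. An E-box was present in 4 of the 8, with 1 in *Gdf11*, 3 in *Fstl3* and 1 in *Acvr1b* besides those of *Mstn*. The letters of the SMAD-binding motif CAGAC, searched on both strands, occurred 2 times in the *Mstn* window and in 49.7% of all windows, and neither copy overlapped an E-box. These matches are letters in a window and were not tested for binding.

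Total counts per muscle were similar in both groups, from 45018389 to 59309210 in Control (median 50866193.5) and from 44848322 to 60527385 in *FRAIL1* (median 48532028). Counts are given below as CPM, the counts relative to library size scaled by TMM factors, and levels of different genes are compared as RPKM, which also divides by exonic length. *FRAIL1* muscle 5 stood apart from the other 11. Its TMM factor was 1.19, the highest, and its first principal component score was 59.5 against 25.8 for the next muscle. The main differences between the groups are therefore also given without it. With edgeR's quasi-likelihood test and a Benjamini-Hochberg adjusted p threshold of 0.05 over all tested genes, 974 genes (6.28%) were called in all, 687 (4.43%) of them higher and 287 (1.85%) lower with *FRAIL1*. The labels do not say whether a muscle number stands for a mouse. The main fit and the permutation test of the ratios therefore leave out the pairing of muscles within a mouse. Their p-values set the difference between groups against the spread of the 6 muscles within each group. Fits with the muscle number as a block are given beside them.

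None of the 10 genes passed this threshold in the fit without a term for the muscle number. *Mstn* and *Fst* came nearest, with *Mstn* 27.1% lower and *Fst* 1.55-fold higher on average in *FRAIL1* muscles, and they were the only 2 of the 10 with an unadjusted p under 0.05, a level reached by 27.7% of all tested genes. Other tests called some of them, and also called more of all genes. DESeq2's Wald test called 2 of the 10 (*Mstn* and *Fst*), against 14.6% of the genes it tested, and limma voom called 1 (*Mstn*), against 11.8%. With the muscle number as a block, edgeR called 3 (*Mstn*, *Fst* and *Acvr1b*), against 14.1%. The median log2 fold change of the 10 genes was -0.078, against 0.0096 for all tested genes, with 7 below and 3 above 0. For 8 of the 10, the 95% interval of the log2 fold change lay within 1 of 0, so that larger differences lie outside the interval for these genes. Each gene had a count in every muscle.

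**Figure D1:**
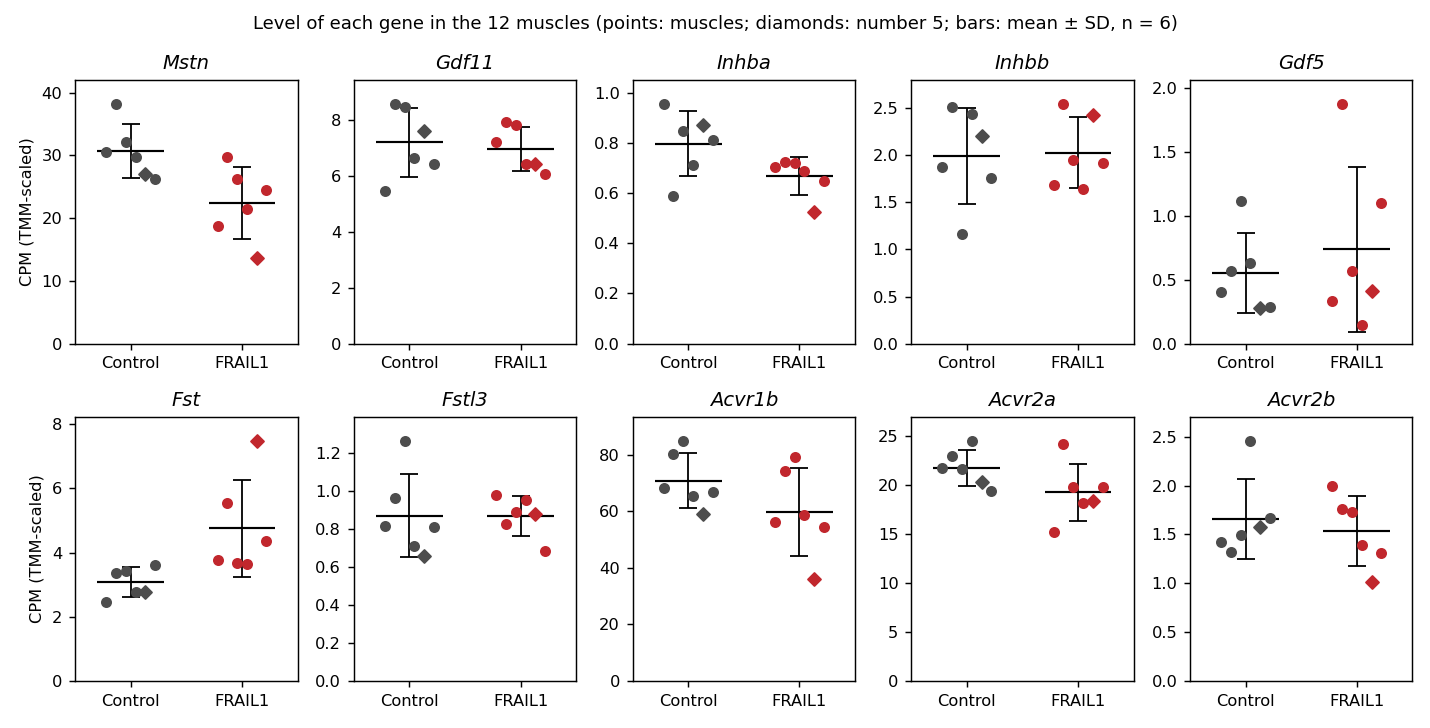
CPM of the 10 genes in each of the 12 muscles, with Control in grey and *FRAIL1* in red; points are muscles, diamonds the muscles numbered 5, and bars the mean ± SD (n = 6). For *Fst* the *FRAIL1* muscles start at 3.66 CPM, just above the highest Control muscle at 3.62 CPM, and *FRAIL1* muscle 5 has the lowest *Mstn* (13.7 CPM) and the highest *Fst* (7.48 CPM).

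Among the ligands, *Mstn* (Gene ID 17700, chr1:53061640-53068079), which encodes the muscle-derived inhibitor of muscle growth, had the most counts. Its lowest, median and highest levels were 26.3, 30.2 and 38.2 CPM in Control muscles and 13.7, 22.9 and 29.7 CPM in *FRAIL1* muscles. The ranges overlapped from 26.28 to 29.65 CPM, in which 2 muscles of each group lay. Mean levels (± SD, n = 6 each) were 30.7 ± 4.29 CPM and 22.4 ± 5.69 CPM. The log2 fold change was -0.46 (SE 0.158, 95% interval -0.80 to -0.11), with an adjusted p of 0.0892 in the edgeR fit over all genes and a range of 2.0e-04 to 0.167 over 24 alternative analyses. Without *FRAIL1* muscle 5 the log2 fold change was -0.35 and the adjusted p from edgeR was 0.105. The *Mstn* counts behind these levels were 733 to 2141 per muscle, enough that counting error is small beside the spread between muscles.

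*Gdf11* (14561, chr10:128880524-128891718), the closest relative of *Mstn*, had nearly the same mean in both groups. Its levels ran from 5.45 to 8.57 CPM in Control (median 7.11) and from 6.04 to 7.90 CPM in *FRAIL1* muscles (median 6.81). The *FRAIL1* values all lay inside the Control range, and the interval of the log2 fold change, -0.30 to 0.21 around an estimate of -0.046, was the narrowest among the ligands.

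The activin subunit genes were near the lower end of detection. *Inhba* (16323, chr13:16004256-16031609), which encodes the βA subunit of activin A, was counted 28 to 47 times per muscle and lay between 0.589 and 0.956 CPM in Control (median 0.830) and between 0.524 and 0.723 CPM in *FRAIL1* muscles (median 0.696). Of the 6 Control muscles, 2 lay inside the *FRAIL1* range and 4 lay above it. The *Inhba* log2 fold change was -0.25 (SE 0.188, 95% interval -0.65 to 0.15; edgeR adjusted p = 0.401). *Inhbb* (16324, chr1:119415463-119422248), for the βB subunit, lay between 1.16 and 2.52 CPM in Control (median 2.04) and between 1.64 and 2.55 CPM in *FRAIL1* muscles (median 1.94). Its groups overlapped almost entirely, and the interval of its log2 fold change ran from -0.38 to 0.43.

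*Gdf5* (14563, chr2:155941023-155945367), the BMP-branch ligand, varied widely between muscles of both groups. Control muscles lay between 0.282 and 1.12 CPM (median 0.489) and *FRAIL1* muscles between 0.142 and 1.88 CPM (median 0.488), so both the lowest and the highest of the 12 values came from *FRAIL1* muscles. The high values were those of *FRAIL1* muscle 2 (109 counts), *FRAIL1* muscle 6 (56 counts) and Control muscle 3 (54 counts), and the lowest was *FRAIL1* muscle 4 (7 counts). The log2 fold change was 0.43 with a 95% interval from -0.70 to 1.56 (edgeR adjusted p = 0.634), the widest of the 10. Its overlap with *Gm15557* covers 40.3% of its exonic bases, as given above.

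Of the antagonists, *Fst* (14313, chr13:114452262-114458989), which encodes follistatin, was the 1 gene of the 10 whose groups did not overlap, a pattern found in 4.88% of all tested genes. Control muscles lay between 2.46 and 3.62 CPM (median 3.08) and *FRAIL1* muscles between 3.66 and 7.48 CPM (median 4.07). The gap between the groups was narrow, since *FRAIL1* muscles 1, 3 and 4 lay between 3.66 and 3.77 CPM, and the upper end was set by *FRAIL1* muscle 2 at 5.54 CPM and muscle 5 at 7.48 CPM. Means (± SD, n = 6 each) were 3.07 ± 0.462 CPM for Control and 4.75 ± 1.52 CPM for *FRAIL1*. The log2 fold change of 0.63 (SE 0.181, 95% interval 0.24 to 1.01) had an adjusted p of 0.0512 in the edgeR fit, just outside the threshold, and 0.00675 to 0.116 over 24 alternative analyses. Without *FRAIL1* muscle 5 the difference was 0.45 on the log2 scale, with an adjusted p of 0.0750 in the same test. *Fst* was counted 118 to 189 times in Control and 181 to 400 times in *FRAIL1* muscles.

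*Fstl3* (83554, chr10:79777274-79782630), for the related secreted inhibitor follistatin-like 3, had nearly equal means in the groups, 0.870 ± 0.219 CPM in Control and 0.868 ± 0.104 CPM in *FRAIL1* muscles (SD, n = 6 each). Its Control values, from 0.658 to 1.26 CPM, enclosed all of the *FRAIL1* values, from 0.686 to 0.978 CPM. The interval of its log2 fold change ran from -0.42 to 0.41, and 47.3% of its exonic bases overlap *Prss57*.

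The receptors had means that were slightly lower or similar in *FRAIL1* muscles, and none passed the test without a block. *Acvr1b* (11479, chr15:101174072-101213684), the type I receptor also called ALK4, lay between 59.2 and 84.9 CPM in Control (median 67.6) and between 35.9 and 79.3 CPM in *FRAIL1* muscles (median 57.5). Muscle 5 of the *FRAIL1* group was again the lowest, at 35.9 CPM against 54.6 CPM for the next. Its log2 fold change was -0.24 (SE 0.160, 95% interval -0.59 to 0.10; edgeR adjusted p = 0.347) and -0.13 without that muscle. Over the 24 alternatives the adjusted p of *Acvr1b* ran from 0.0143 to 0.559, and it was under 0.05 only in the fits with a block.

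*Acvr2a* (11480, chr2:48814109-48903264), 1 of the 2 type II receptors for these ligands, lay between 19.3 and 24.5 CPM in Control (median 21.7) and between 15.2 and 24.1 CPM in *FRAIL1* muscles (median 19.0). The ranges overlapped from 19.3 to 24.1 CPM, in which 3 *FRAIL1* muscles lay. It was the most precisely measured of the 10, with a log2 fold change of -0.18 (SE 0.0931, 95% interval -0.37 to 0.02; edgeR adjusted p = 0.232). *Acvr2b* (11481, chr9:119401583-119442148), the other type II receptor, lay between 1.32 and 2.46 CPM in Control (median 1.53) and between 1.01 and 1.995 CPM in *FRAIL1* muscles (median 1.56). Its medians were nearly equal, and Control muscle 4 at 2.46 CPM stood above the other Control muscles, which lay between 1.32 and 1.67 CPM. The interval of its log2 fold change ran from -0.53 to 0.31.

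**Figure D2:**
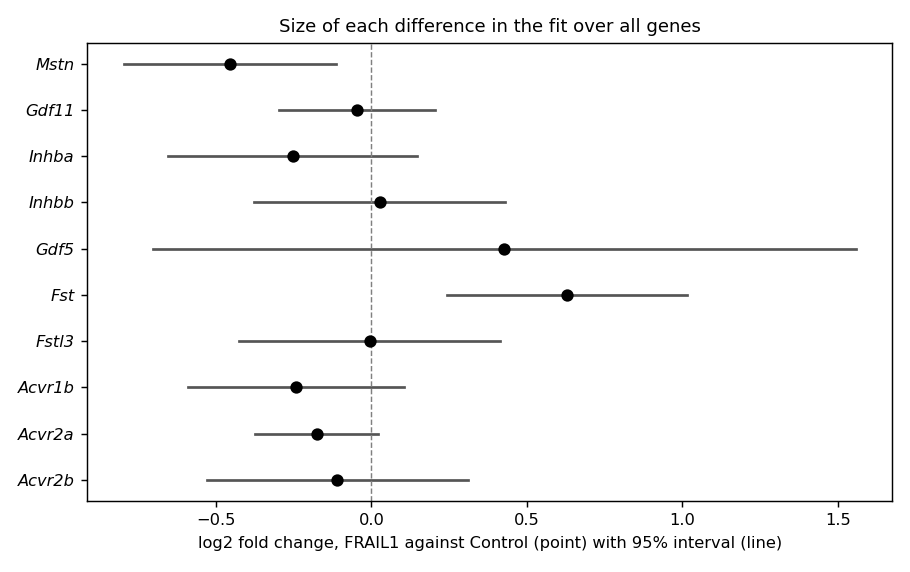
Log2 fold change of *FRAIL1* against Control muscles (points) with its 95% interval (lines) for each of the 10 genes, from the edgeR fit over 15502 genes. The intervals of *Mstn* (-0.80 to -0.11) and *Fst* (0.24 to 1.01) lie to either side of 0 before adjustment for the number of genes, and that of *Gdf5* (-0.70 to 1.56) is the widest.

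Per unit of length, the levels of the 10 transcripts in Control muscles ran from 0.125 to 16.0 RPKM. *Acvr1b* (16.0 ± 2.20 RPKM, SD, n = 6) and *Mstn* (11.3 ± 1.59 RPKM) were the most abundant, at the 85.7th and 79.4th percentiles of the tested genes, and their ranges over muscles overlapped. *Acvr2a* followed at 3.82 ± 0.323 RPKM, *Gdf11* at 1.77 ± 0.304 RPKM and *Fst* at 0.670 ± 0.101 RPKM. With the exonic lengths used, each was separated from the gene above it with no overlap of the ranges. From *Fst* downward the ranges of neighbors in this order overlapped, through *Inhbb* (0.468 ± 0.119 RPKM), *Acvr2b* (0.422 ± 0.104 RPKM), *Fstl3* (0.356 ± 0.0895 RPKM), *Gdf5* (0.237 ± 0.135 RPKM) and *Inhba* (0.125 ± 0.0203 RPKM). The transcript of the type II receptor *Acvr2a* was on average 9.19-fold more abundant per kb than that of *Acvr2b*, and *Mstn* exceeded *Gdf11* in every Control muscle. Exonic length here joined all annotated exons of a gene. It was 4589 bases for *Fst* and 3928 for *Acvr2b*, while a transcript with the longest coding sequence held 1851 and 2093 bases. The levels of *Fst* and *Acvr2b* relative to other genes, and their places in this order, therefore depend on the length used.

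Ratios between members within a library do not depend on the scaling between libraries, and 4 were computed on log2 counts per kb. The question was whether the balance of ligand and antagonist, of the antagonists, of the type II receptors, and of ligand and receptor differed between groups. The *Mstn* to *Fst* ratio was 20.99, 19.17, 15.81, 18.12, 16.49 and 12.29 in Control muscles 1 to 6 and 8.39, 9.06, 12.08, 9.92, 3.11 and 9.45 in *FRAIL1* muscles 1 to 6. Every *FRAIL1* muscle thus lay below every Control muscle, with *FRAIL1* muscle 3 (12.08) just under Control muscle 6 (12.29). On the log2 scale the ratio was 4.08 ± 0.270 (SD, n = 6) in Control and 3.005 ± 0.694 (SD, n = 6) with *FRAIL1*. With the exonic lengths used, this is a mean excess of *Mstn* over *Fst* per kb of 16.9-fold and 8.03-fold. The size of this excess depends on the length taken for *Fst*, while the difference between the groups does not. The difference of -1.07 had a two-sided exact permutation p of 0.00216, the smallest that 924 divisions of the 12 muscles allow, and 0.00866 after adjustment over the 4 ratios. Without *FRAIL1* muscle 5 it was -0.80 with an adjusted exact permutation p of 0.0173, and without both muscles numbered 5 it was -0.81 (0.0317). The ratio was chosen when earlier results for these genes were known, so its p-value is not evidence independent of the *Mstn* and *Fst* levels above.

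The other 3 ratios did not pass the same test. *Fst* relative to *Fstl3* was 0.92 ± 0.275 in Control and 1.49 ± 0.489 in *FRAIL1* muscles on the log2 scale (SD, n = 6 each; exact permutation p = 0.0455, adjusted p = 0.0909). *Mstn* relative to *Acvr2b* differed by -0.37 on the log2 scale (exact permutation p = 0.128, adjusted p = 0.170). The *Acvr2a* to *Acvr2b* ratio was 3.20 ± 0.288 in Control and 3.13 ± 0.422 in *FRAIL1* muscles (SD, n = 6 each), the difference being smaller than the spread in either group.

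**Figure D3:**
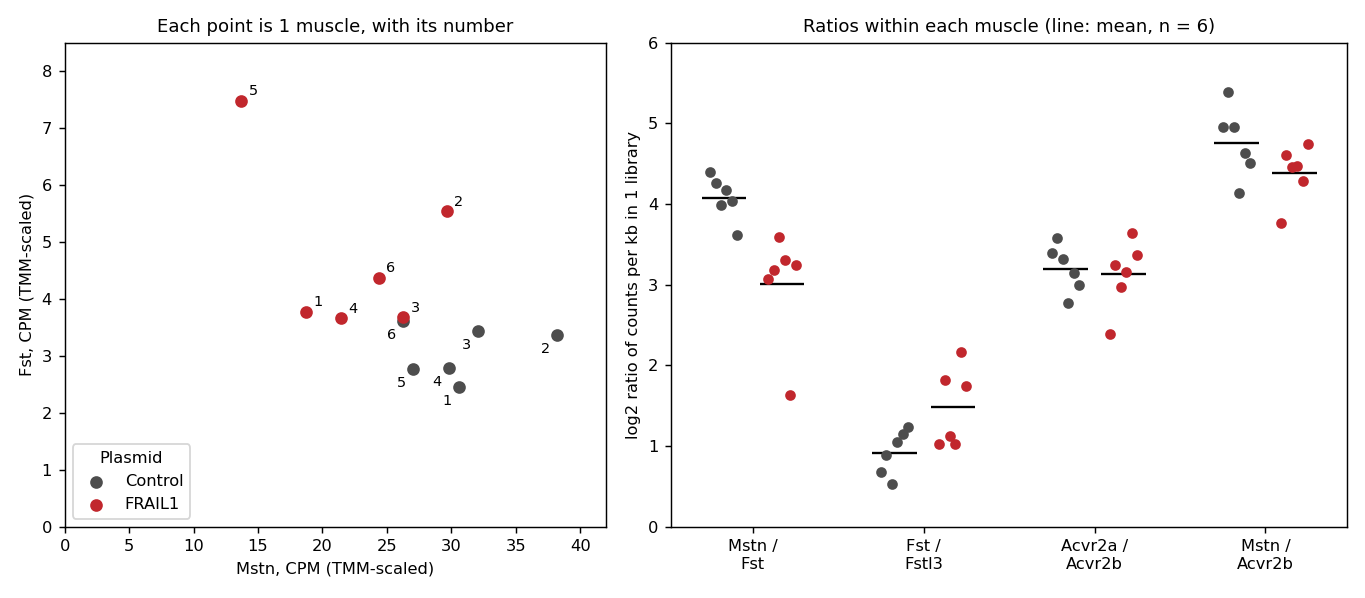
Left, *Fst* against *Mstn* in CPM for each muscle with its number (Control grey, *FRAIL1* red); right, the 4 log2 ratios of counts per kb within each library, with a line at the group mean (n = 6). The *Mstn* to *Fst* ratios of Control muscles (3.62 to 4.39) and *FRAIL1* muscles (1.64 to 3.59) do not overlap, and *FRAIL1* muscle 5 is the lowest.

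The members varied together to different degrees over the 12 muscles once the group means were removed. As a description over muscles that share their library depth and composition, the deviations of *Mstn* had a Pearson r of 0.887 with those of *Acvr1b*, 0.650 with *Acvr2a* and -0.332 with *Fst*. Among 7875 genes with a mean of at least 10 CPM, those closest to *Mstn* by this measure were *Adi1*, for an enzyme of methionine salvage (r = 0.975), *Gpcpd1*, for a glycerophosphocholine phosphodiesterase (r = 0.965), and *Arel1*, for a ubiquitin ligase (r = 0.964). Of these, *Gpcpd1* averaged 267 CPM in Control and 171 CPM in *FRAIL1* muscles, with a log2 fold change of -0.64 and an edgeR adjusted p of 0.0830, and *Adi1* and *Arel1* did not pass the threshold either. *FRAIL1* muscle 5 had the lowest level of both *Mstn* (13.7 CPM) and *Acvr1b* (35.9 CPM), and none of these correlations was computed without it.

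Other genes of the pathway were read from 7 lists of 59 genes, of which 48 were tested, 1 was called higher and 0 lower, against 6.28% of all tested genes called. The median log2 fold change of the 48 was -0.025. The gene called was *Chrd*, for the BMP-binding antagonist chordin, which averaged 4.57 ± 0.412 CPM in Control and 6.23 ± 0.739 CPM in *FRAIL1* muscles (SD, n = 6 each; log2 fold change 0.45, SE 0.102, edgeR adjusted p = 0.0231), and the lowest *FRAIL1* muscle at 5.19 CPM lay just below the highest Control muscle at 5.21 CPM.

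In the list of other activin-type ligands 2 of 6 genes had enough counts, *Inha*, for the inhibin α subunit (log2 fold change 0.34, edgeR adjusted p = 0.0837), and *Gdf3* (1.27, 0.0993), and *Inhbc*, *Inhbe* and *Gdf1* had no count in any muscle. Of the BMP and GDF ligands 6 of 9 were tested and none was called, with the largest log2 fold changes in *Gdf6* (0.73) and *Bmp6* (-0.43). The 11 tested antagonists besides *Fst* and *Fstl3* included *Chrd*, and the largest difference was that of *Fstl1* (0.53, edgeR adjusted p = 0.0986). None of 5 tested proteases that release ligands from their propeptides was called, the largest difference being 0.41 for *Bmp1*, nor was any of 7 other receptors, with *Bmpr1b* at -0.30.

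Of 12 SMAD genes and SMAD regulators none was called, but 9 had a log2 fold change below 0. The list median was -0.20, against 0.0096 for all tested genes. The list joined mediators with inhibitors. The inhibitors *Smad6* (-0.36), *Smad7* (-0.26), *Smurf2* (-0.29) and *Ski* (-0.15) were lower too, with edgeR adjusted p of 0.0833, 0.0802, 0.0760 and 0.0811. The 3 genes above 0 were *Skil* (0.24), *Smad1* (0.12) and *Smad2* (0.029). *Smad3*, for an intracellular mediator of the myostatin and activin branch, averaged 132 ± 26.6 CPM in Control and 93.3 ± 21.4 CPM in *FRAIL1* muscles (SD, n = 6 each), with a log2 fold change of -0.50 (SE 0.165, edgeR adjusted p = 0.0781). Without both muscles numbered 5, 1 of the 12 was called, *Smad4* (-0.24, edgeR adjusted p = 0.0361), for the partner of SMAD2 and SMAD3. Among 5 genes used as readouts of the BMP branch, the *Id* genes and *Fbxo30*, none was called, and the largest difference was that of *Id2* (0.28, edgeR adjusted p = 0.130). The ubiquitin ligases of muscle atrophy did not pass the test either, with *Fbxo32* (atrogin-1) at -0.50 (edgeR adjusted p = 0.313) and *Trim63* (MuRF1) at -0.31 (0.274).

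**Figure D4:**
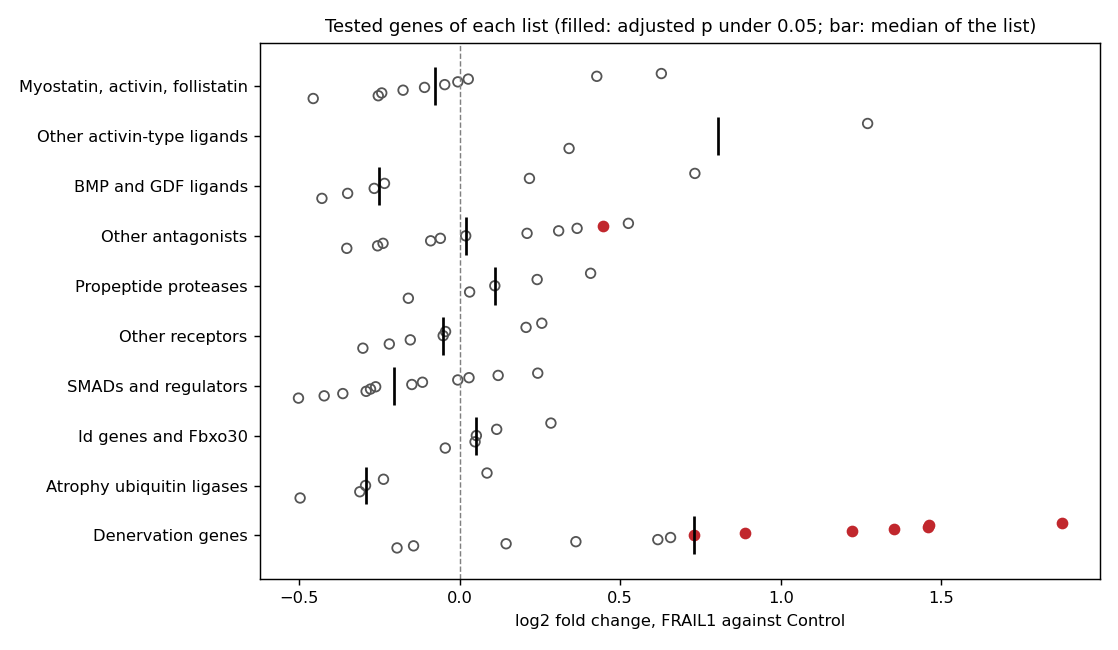
Log2 fold change of *FRAIL1* against Control muscles for every tested gene of the 10 members and of 9 lists of related genes; filled red points have an adjusted p under 0.05 in the edgeR fit and vertical bars are list medians. *Chrd* is the 1 filled point among the pathway lists, while 7 of the 13 denervation genes are filled, with a list median of 0.73.

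Genes that respond to denervation of muscle were set beside *Gdf5*, which is known to rise in denervated muscle. *Dach2* is listed but is not a gene that rises there, and the counts and median of the list include it. Of 13 listed, 7 were called higher in *FRAIL1* muscles, against 4.43% of all tested genes, and 0 were called lower. The median log2 fold change was 0.73, with 11 of the 13 above 0 and 2 below, *Dach2* (-0.19) and *Hdac4* (-0.14). Without both muscles numbered 5, 6 were called, and *Runx1* did not pass. The 7 called with all muscles were the acetylcholine receptor subunits *Chrna1* (1.46), *Chrnb1* (0.73), *Chrnd* (1.22) and *Chrng* (1.88), the myogenic factor *Myog* (1.46), the transcription factor *Runx1* (0.89) and the adhesion molecule *Ncam1* (1.35). *Gdf5* itself had a median of 0.489 CPM in Control and 0.488 CPM in *FRAIL1* muscles, as above.

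Markers of cell types were read as summed levels, since in whole muscle fewer cells of a type and less RNA per cell cannot be told apart. The 10 myofiber markers summed to 144893 to 170099 CPM in Control and 115101 to 153653 CPM in *FRAIL1* muscles, with 1 of 10 called lower (*Ckm*) against 1.85% of all tested genes, and no marker of any list was at 0 in every muscle. The 8 satellite cell and regenerating fiber markers summed to 146 to 193 CPM in Control and 288 to 1478 CPM in *FRAIL1* muscles, and 4 of 8 were called higher (*Myh3*, *Myh8*, *Mymk* and *Mymx*) against 4.43% of all tested genes. Most of this sum was *Myh3* (means of 50.9 CPM in Control and 228 CPM with *FRAIL1*) and *Myh8* (98.3 and 353 CPM). The satellite cell markers *Pax7*, *Myf5*, *Calcr* and *Vcam1* were not called. The 10 fibroblast markers summed to 1241 to 2275 CPM in Control and 2384 to 6203 CPM in *FRAIL1* muscles, with 1 of 10 called higher (*Col1a2*), against the same 4.43%. Most of this sum was the collagen genes *Col1a1*, *Col1a2* and *Col3a1*. Their means were 449, 426 and 731 CPM in Control and 927, 752 and 1293 CPM with *FRAIL1*. Of the 10 markers, 8 had a log2 fold change above 0, and *Pi16* (-0.14) and *Ly6a* (-0.18) were below 0. *FRAIL1* muscle 5, which had the lowest *Mstn* and highest *Fst*, also had the highest sums of both lists, 1478 CPM against 616 CPM and 6203 CPM against 3128 CPM in the next muscle.

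Tenocyte markers summed to 145 to 310 CPM in Control and 245 to 498 CPM in *FRAIL1* muscles. All 6 had a log2 fold change above 0, and 2 were called higher (*Scx* and *Thbs4*), against 4.43% of all tested genes. Macrophage markers summed to 244 to 381 CPM in Control and 305 to 776 CPM in *FRAIL1* muscles, with 0 of 10 called. Of these markers 9 had a log2 fold change above 0 and 1 below, with a list median of 0.64. All 8 endothelial markers had a log2 fold change below 0, and 3 were called lower (*Flt1*, *Tek* and *Vwf*), again against 1.85% of all tested genes. Their sums were 482 to 553 CPM in Control and 385 to 490 CPM in *FRAIL1* muscles. The 7 tested lymphocyte markers and 6 Schwann cell markers had 0 calls each. All 6 Schwann cell markers had a log2 fold change below 0 (list median -0.32), as had 5 of the 7 lymphocyte markers (-0.18). Without both muscles numbered 5, *Ckm*, *Col1a2*, *Thbs4* and *Vwf* no longer passed the test, the endothelial marker *Pecam1* did, and all 4 markers of regenerating fibers were still called. The part of these markers in the *Mstn* and *Fst* values was not tested.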

How the data were processed

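The authors extracted RNA from whole TA muscles, selected poly(A) RNA and sequenced it as paired-end reads. They trimmed the reads with Trimmomatic, mapped them to mm10 with STAR 2.7.8a and counted those that mapped uniquely to annotated genes with featureCounts 2.0.1. The deposited values are these raw counts per gene, without normalization, listed by NCBI Gene ID. Of 27179 IDs, 25275 were paired with a GRCm38 gene symbol, and 0.28% of counts fell on unpaired IDs. Within a group no library was a copy of another (chi-square per degree of freedom of at least 14.5).

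Samples were grouped by the transfection given in the labels. After filterByExpr and TMM scaling, groups were compared by edgeR's quasi-likelihood test (robust; version 4.0.16 under R 4.3.3), without a term for the muscle number, and p-values were adjusted over all 15502 tested genes by the method of Benjamini and Hochberg. Ratios used counts plus 0.5 per kb of exon and a two-sided exact permutation test. Alternatives were a block for the muscle number, other scalings and filters, a fit that was not robust, DESeq2 1.42.0, limma voom (limma 3.58.1), each muscle left out in turn, and both muscles numbered 5 left out. Scripts were tested on simulated data with the seed 20240131. The 10 genes, the lists of related genes and markers, and the ratios were chosen with earlier results of these data known. All 10 genes were named. Of each pathway list the genes past the threshold were named, or otherwise the 1 or 2 with the largest differences. Further genes of the SMAD list were named to show both directions and the inhibitors. The error given is the SD over the 6 muscles of a group, and low counts (7 to 109 for *Gdf5*) limit precision further. Transcripts were searched with BLAST 2.17.0 at 98% identity over 100 bases.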

Additional observations from a re-analysis of the deposited data

Results flagged for a closer look

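Among 28 groups of 6 values (each of the 10 genes and 4 ratios in each group), 2 held a muscle farther from the rest than Dixon's 95% limit, and chance alone gives such a muscle in about 1 group of 20. *Acvr2b* in Control muscle 4 was 2.46 CPM, while the other 5 Control muscles lay between 1.32 and 1.67 CPM. Without that muscle the *Acvr2b* log2 fold change was 0.038 in place of -0.11, and it did not pass the test in either case. The log2 ratio of *Mstn* to *Fst* in *FRAIL1* muscle 5 was 1.64, while the other 5 *FRAIL1* muscles lay between 3.07 and 3.59. The same muscle had the lowest *Mstn* and the highest *Fst* level of the 12 and the highest sums of fibroblast and regenerating fiber markers, and their part in the ratio was not tested. Without it the ratio differed between the groups by -0.80 on the log2 scale (adjusted exact permutation p = 0.0173).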

How the results depend on the processing

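The calls on *Mstn*, *Fst* and *Acvr1b* depended on the test, while their directions did not in any of 24 alternatives. Against 0 of the 10 genes called by edgeR without a block (974 genes in all), DESeq2's Wald test called 2 (2211 in all; *Mstn* adjusted p = 0.0337, *Fst* 0.0142) and limma voom with quality weights called 1 (1836 in all; *Mstn*). With a replicate block for the muscle number, edgeR called 3 (*Mstn*, *Fst* and *Acvr1b*; 2186 in all), with log2 fold changes of -0.48, 0.59 and -0.27 and adjusted p of 0.0163, 0.0343 and 0.0393. DESeq2 with the block also called 3 (2875 in all), as did edgeR with the block and without both muscles numbered 5 (2305 in all). Whether the numbers pair muscles of 1 mouse is not stated in the labels. Deviations from the group means correlated at 0.254, 0.162, 0.282, 0.263, 0.0547 and 0.185 between muscles numbered 1 to 6 (mean 0.200, against -0.0400 between different numbers), and 10 of 12 muscles correlated best with their own number, which is a hint from the data and not from the design. In 6 of 6 numbers *Mstn* and *Acvr1b* were lower and *Fst* higher in the *FRAIL1* muscle. Since the labels do not state the pairing and number 5 correlated at only 0.0547, the block was kept as an alternative. The absence of calls among the 10 genes therefore holds only for the fit that leaves out a possible pairing. With signs flipped within numbers, the replicate block form of the ratio test, the *Mstn* to *Fst* difference was -1.07 with an adjusted p of 0.125 and an unadjusted exact p of 0.0312, the smallest that 64 flips allow, so this test could not pass after adjustment on this ratio alone.

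Leaving out 1 muscle at a time gave 364 to 2110 genes called in all (1579 without *FRAIL1* replicate 2, 2110 without *FRAIL1* replicate 3, 969 without *FRAIL1* replicate 5, and 364 to 601 without any one of the other 9 muscles) and 0 to 1 of the 10, *Mstn* without *FRAIL1* replicate 2 (0.0374) and *Fst* without *FRAIL1* replicate 3 (0.0277). Of 239 log2 fold changes of the 10 genes under the alternatives, 221 kept their direction and 18 reversed, 12 of them with 1 muscle left out, all in genes near 0 or with few counts. *Inhbb* was -0.040 with limma voom and -0.0025 without both muscles numbered 5, and -0.089 to 0.11 with 1 muscle left out. *Gdf5* was -0.064 with limma voom and -0.11 to 0.76 with 1 left out, and was not tested where 10 counts were required in every muscle. *Fstl3* was 0.013 with the replicate block, 0.0014 with upper-quartile scaling, 0.0065 with the block in DESeq2, and -0.072 to 0.13 with 1 left out. With 1 left out, *Gdf11* was -0.11 to 0.011, *Acvr2b* -0.20 to 0.038 and the log2 ratio of *Acvr2a* to *Acvr2b* differed by -0.17 to 0.077. The cause of these changes was not tested. The number of counts limits *Inhba*, *Fstl3* and *Gdf5*, all under 1 CPM on average in Control.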
